A study of Mus musculus with 18 samples.

Results

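The messenger RNAs described here encode the enzymes that make nucleotides and supply them with one-carbon units. They are 33 genes chosen by name from the purine, pyrimidine, deoxynucleotide and folate pathways, and all 33 were among the 11243 genes of the count table. All libraries were made from RAW264.7, a macrophage line of mouse origin. The control cells received vehicle (DMSO), and the second group 500 ng/mL LPS for 6 h. The third group received the same LPS in combination with 100 nM torin1, an inhibitor of the kinase mTOR, given from 15 min before the LPS. LPS is a component of the outer membrane of Gram-negative bacteria. Every treatment was repeated in 3 independent experiments, and the 9 lysates were each sequenced as total mRNA and as mRNA of pooled heavy polysome fractions, 18 libraries in all. None of these libraries came from cells given torin1 without LPS, so an effect of torin1 is an effect on cells given LPS.

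Cells build purines on a ribose phosphate, phosphoribosyl pyrophosphate (PRPP), in a stepwise pathway that ends at IMP, from which AMP and GMP branch off. Pyrimidines are made the other way round: the ring is closed first and then joined to PRPP, giving UMP and later CTP. Ribonucleotide reductase turns the ribonucleotides into deoxynucleotides, thymidylate synthase adds the methyl group of thymidylate, and folate enzymes supply the one-carbon units that the purine ring and thymidylate need. Macrophages recover bases and nucleosides through salvage enzymes as well. Dividing cells raise the deoxynucleotide enzymes around S phase, and mTOR is known to promote both purine and pyrimidine synthesis.

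The members fell into 5 groups by role. The purine arm held 12 genes, which were the 6 genes of IMP synthesis, 4 of the AMP and GMP branch, and the salvage enzymes Aprt and Hprt. The pyrimidine arm held 7 genes of UMP synthesis, CTP synthesis and the pyrimidine kinases. The deoxynucleotide group held 7 genes, the folate enzymes were 3, and 4 genes served both arms, which were the PRPP synthetases and the nucleoside diphosphate kinases. The authors had removed genes with a 0 count in any library, and no further filter was applied, so all 33 were tested.

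The promoters were searched for the letters of motifs that are known from growth and cell cycle genes. RefSeq promoters of 300 bases on GRCm38.p6 (250 before the start site and 50 after it) were given for 30 of the 33 members, with 36 start sites, and none for Pfas, Dhodh and Rrm2b. The E-box CACGTG, which reads the same on both strands and is bound by Myc and by TFEB among others, was present for 5 of the 30 members (16.7%) and for 12% of the 8568 counted genes with a promoter. It stood in the purine genes Atic, Paics and Impdh2, in Tyms, and at both start sites of Nme1. No promoter given for the pyrimidine arm held it, but Dhodh had none to search. An E-box further than 50 bases after a start site would have been missed. These matches are shown with the E-box in capitals and 10 bases on either side, 5′ to 3′ on the strand of the gene.
Atic, chr1:71557139-71557164, plus strand: acctcggggtCACGTGgggtcgacac
Paics, chr5:76951089-76951114, plus strand: cctcggaaagCACGTGgagggacctg
Impdh2, chr9:108560316-108560341, plus strand: gctcgataagCACGTGgttacccagc
Tyms, chr5:30073671-30073696, minus strand: ccacttctgtCACGTGggggcggggt
Nme1, chr11:93968275-93968300, minus strand: tgcggggaacCACGTGaggccgggga
Nme1, second start site, chr11:93968039-93968064, minus strand: cttgatacgcCACGTGggctcgcctt

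The letters TTTCCCGC, TTTGGCGC, TTTCGCGC and TTTGGCGG, which are common spellings of sites for E2F factors, were searched on both strands and met in 2 of the 30 members (6.67%) and in 5.26% of the counted genes. Both genes, Ppat and Prps2, were called lower with LPS in total mRNA, but so were 23 of the 33 members. Tk1 and Rrm2, which fell further than either gene there, had no match in the promoters given. A link between these letters and the fall with LPS was not tested. In Ppat the letters read on the opposite strand of the gene, at 2 places upstream of the start, and in Prps2 they lay downstream of the start. The third search, for TGATGNAAN, the amino acid response element bound by ATF4, met only Prps1 (3.33% of the members with a promoter, against 2.77% of the counted genes). A match of letters does not show a bound site, and these shares rest on few genes.
Ppat, chr5:76951772-76951799, minus strand: agcagaccgcGCGGGAAAaaagggcagt
Ppat, chr5:76951719-76951746, minus strand: ggatcagaggGCGGGAAAgggaggtgca
Prps2, chrX:167382700-167382726, minus strand: gctgctgcgtTTTCCCGCttcaccagc
Prps1, chrX:140456423-140456451, plus strand: gctatctttgTGATGTAAAaagtgcttta

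Between 27800983 and 47725557 reads per library were counted, and libraries of a group correlated at 0.9717 or more. In experiment 2 the polysome-associated library of LPS with torin1 stood apart, since it correlated at 0.976 with a library of another treatment, more closely than with one of its own group (0.9717). All 8 macrophage markers examined were measured, whereas none of 10 markers of other cell types was in the table. Since a 0 count in any library removed a gene, absence from the table does not show that it was silent. Of 5 LPS response markers 3 were measured, and all 3 were higher with LPS in both RNA types. Levels are given as CPM, the reads of a gene scaled to a fixed library size, after TMM normalisation within an RNA type, always in the order of experiments 1, 2 and 3. Changes are log2 fold changes with their SE from edgeR's quasi-likelihood test, and a gene was called at a Benjamini-Hochberg adjusted p of at most 0.25 over all 11243 genes. The comparison of LPS with control and that of LPS with torin1 against LPS share the LPS libraries, so their values are set side by side without any measure of likeness.

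LPS lowered most of the nucleotide genes. In total mRNA 23 of the 33 members were called lower and 4 higher, where 34.3% of all genes were called lower and 32.2% higher. The median change was −0.48 over the members and −0.02 over all genes. In polysome-associated mRNA 20 members were called lower and 2 higher, against 28.7% and 26.4% of all genes, and the median was −0.54. Without experiment 1 the polysome-associated count of lower members was 13, and without experiment 3 it was 16, while the share of all genes called in either direction went from 55.1% to 34.7% and 37.6%. In total mRNA the count of lower members stayed between 21 and 23. In bulk libraries fewer cells of a kind and less mRNA per cell cannot be told apart.

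**Figure D1:**
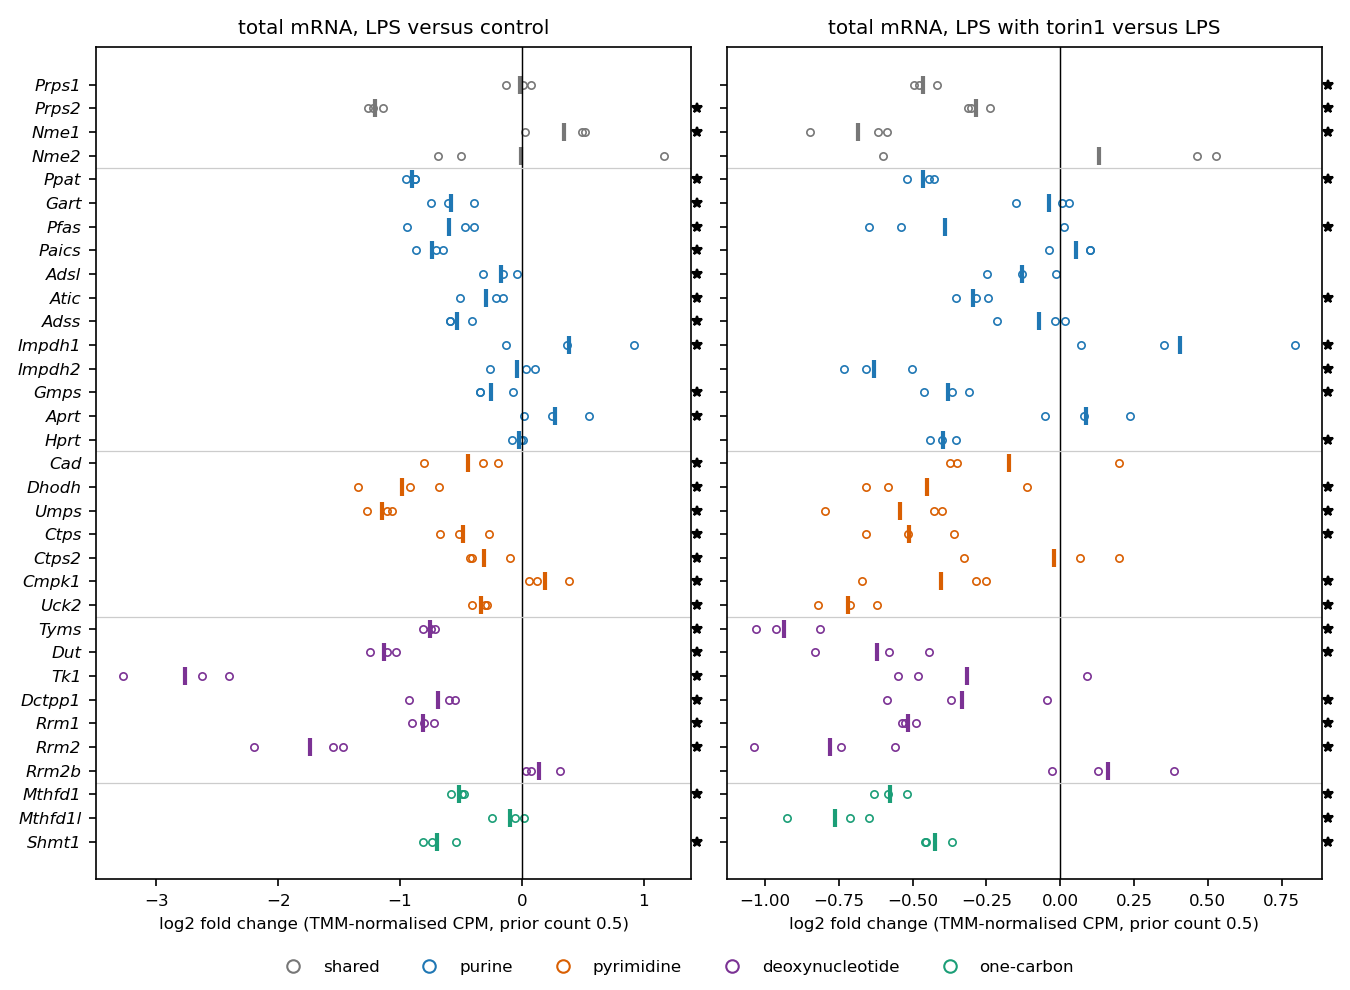
Log2 fold changes of the 33 members in total mRNA for LPS versus control (left) and LPS with torin1 versus LPS (right), on separate linear scales. Open circles are the 3 experiments, vertical ticks their mean, and stars mark genes called at an adjusted p of at most 0.25. With LPS 23 members are called lower, Tk1 at the far left, and with torin1 22 are.

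The deoxynucleotide enzymes fell furthest. Of the 7 members 6 were called lower with LPS in both RNA types, against 34.3% of all genes in total and 28.7% in polysome-associated mRNA. Their median change was −0.81 in total and −0.78 in polysome-associated mRNA over the 7 members. Tk1, the cytosolic thymidine kinase that recovers thymidine in S phase, stood at 96.4, 106.8 and 126 CPM of total mRNA in the vehicle group, against 9.95, 17.3 and 23.9 CPM with LPS. The groups were far apart in every experiment, and the change was −2.68 ± 0.28 in total (adjusted p = 3.77e-05) and −2.69 ± 0.26 in polysome-associated mRNA (adjusted p = 3.63e-05). Among polysomes the level of Tk1 went from 159, 138 and 170 CPM to 16.1, 23.7 and 32.4 CPM.

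Rrm2, the S phase form of the small subunit of ribonucleotide reductase, went from 136.4, 134.5 and 157 CPM to 29.7, 46.0 and 56.7 CPM in total mRNA (−1.69 ± 0.21, adjusted p = 0.000122). Its level among polysomes was 103, 111.7 and 112.8 CPM in the vehicle group, against 20.3, 34.3 and 47.8 CPM with LPS. Here too no LPS library reached a control library. Rrm1, the large subunit, fell less, by 0.81 on the log2 scale in total mRNA. Dut, which removes dUTP and so keeps uracil out of DNA, went from 65.9, 66.8 and 73.8 CPM to 30.5, 28.2 and 36.03 CPM in total and from 114, 114 and 126 CPM to 35.5, 47.9 and 60.3 CPM among polysomes. The polysome-associated change of Dut was −1.30 ± 0.19 (adjusted p = 0.00045).

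Tyms, thymidylate synthase, went from 66.6, 71.7 and 70.4 CPM to 40.7, 42.9 and 40.1 CPM in total mRNA (−0.75 ± 0.09, adjusted p = 7.86e-05). Dctpp1, which hydrolyses dCTP, fell by 0.68 on the log2 scale in total mRNA. Its polysome-associated call was lost without experiment 1 (adjusted p = 0.425) and without experiment 3 (adjusted p = 0.341). The exception among the deoxynucleotide genes was Rrm2b, the small subunit that resting cells use, which was not called in total mRNA (0.14 ± 0.11, adjusted p = 0.311). It was called higher among polysomes (0.31 ± 0.18, adjusted p = 0.212), but the call was lost without experiment 1 (adjusted p = 0.711) and without experiment 3 (adjusted p = 0.628), and experiment 2 moved by −0.11.

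Markers of the cell cycle moved with these genes. All 15 S phase genes of a list with no member in it, among them the MCM helicase genes and Pcna, were called lower with LPS in both RNA types, with a median of −1.32 in total mRNA. Their summed level in total mRNA ranged from 2371 to 2540 CPM in control libraries, from 814 to 1103 CPM after LPS and from 716.5 to 844.5 CPM where torin1 was added. All 12 genes of G2 and mitosis were called lower with LPS in total mRNA, with a median of −0.75. Of all genes 34.3% were called lower with LPS in total and 28.7% in polysome-associated mRNA. The summed level of the 7 deoxynucleotide genes was between 713 and 823 CPM, between 324 and 409 CPM and between 233 and 283 CPM in the same order of groups. The part of the cell cycle in the fall of the nucleotide genes was not tested.

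The mRNAs of de novo purine synthesis were lower with LPS. All 6 genes from Ppat to Atic were called lower in total mRNA, by between 0.17 and 0.90 on the log2 scale with a median of −0.57, and 5 of the 6 were called lower among polysomes. The shares of all genes called lower were 34.3% and 28.7%. Ppat, whose enzyme makes the committed step, fell furthest. It went from 114, 105.1 and 110.4 CPM to 58.8, 57.4 and 60.0 CPM in total mRNA (−0.90 ± 0.09, adjusted p = 1.98e-05) and from 86.0, 82.7 and 94.1 CPM to 41.0, 37.9 and 54.9 CPM among polysomes. Paics, which lies head to head with Ppat on chromosome 5 and encodes the enzyme of a pair of middle steps, fell by 0.74 on the log2 scale in total mRNA, and Gart and Pfas, which carry out other middle steps, each fell by 0.57. Among polysomes the call of Gart was lost without experiment 1 (adjusted p = 0.318).

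The end of the IMP pathway changed least. Atic, which closes the purine ring, fell by 0.29 on the log2 scale in total mRNA, and its polysome-associated change of −0.23 was called only with the experiments as a block (adjusted p = 0.152 against 0.362 without it). Adsl, which acts both in IMP synthesis and in the AMP branch, was called lower at −0.17 ± 0.10 (adjusted p = 0.182). The total groups of Adsl overlapped, and the call was lost without experiment 1 (adjusted p = 0.575), without experiment 3 (adjusted p = 0.355), with DESeq2's Wald test (adjusted p = 0.273), with its size factors (adjusted p = 0.254) and with only the treatments compared (adjusted p = 0.297). The polysome-associated call of Adsl was also lost without experiment 1 (adjusted p = 0.433) and without experiment 3 (adjusted p = 0.375).

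The AMP and GMP branch and salvage did not move as one. Adss, the first enzyme toward AMP, fell by 0.53 on the log2 scale in total mRNA (adjusted p = 0.0028). Gmps, which makes GMP, was called lower at −0.25 ± 0.11, a call lost without experiment 2 (adjusted p = 0.302) and without experiment 3 (adjusted p = 0.374). Impdh1 and Impdh2, paralogues of the enzyme that opens the GMP branch, are described with the other paralogues. Aprt, which salvages adenine, stood at 194.5, 196 and 210.1 CPM in the vehicle group and at 197, 286.5 and 249.6 CPM after LPS in total mRNA. Its rise of 0.29 ± 0.14 (adjusted p = 0.112) rested on experiments 2 and 3 and lost its call without either, with adjusted p of 0.496 and 0.296. Hprt, which salvages hypoxanthine and guanine, changed by −0.03 ± 0.09 in total mRNA and was not called.

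In the pyrimidine arm 6 of 7 genes were called lower with LPS in total mRNA and 5 among polysomes, against 34.3% and 28.7% of all genes. Umps, which completes UMP, went from 97.1, 83.8 and 90.7 CPM to 40.3, 38.8 and 43.4 CPM in total mRNA (−1.15 ± 0.10, adjusted p = 1.5e-05) and from 86.8, 71.4 and 81.5 CPM to 35.9, 28.1 and 38.9 CPM among polysomes. It was the arm's furthest fall in both RNA types. Dhodh, the mitochondrial enzyme of the pathway, fell by 0.98 and Cad, the enzyme of the first 3 steps, by 0.41 on the log2 scale in total mRNA. Cad varied between experiments, with control levels of 407, 218 and 349.6 CPM among polysomes, and its polysome-associated call at −0.61 ± 0.21 was lost without experiment 1 (adjusted p = 0.277) and without experiment 3 (adjusted p = 0.289).

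The pyrimidine kinases split. Uck2, which salvages uridine and cytidine, went from 386, 421 and 394 CPM to 317.5, 317 and 320.2 CPM in total mRNA (−0.33 ± 0.09, adjusted p = 0.0129). Among polysomes Uck2 was also called lower, but not without experiment 1 (adjusted p = 0.436) or without experiment 3 (adjusted p = 0.482). Cmpk1, the kinase of UMP and CMP, stood at 145.5, 152.5 and 135.5 CPM in the vehicle group and at 191, 166 and 141 CPM after LPS, and was called higher at 0.20 ± 0.12 (adjusted p = 0.206). The ranges of Cmpk1 overlapped, and the call was lost without experiment 1 (adjusted p = 0.568) and without experiment 2 (adjusted p = 0.272).

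Of the folate enzymes, Shmt1, which takes one-carbon units from serine in the cytosol, fell by 0.69 and Mthfd1, which carries them to formyl folate for the purine ring, by 0.51 on the log2 scale in total mRNA. Mthfd1l, the mitochondrial formate producer, was not called (−0.11 ± 0.18, adjusted p = 0.654). Among polysomes Shmt1 and Mthfd1 fell by 0.74 and 0.63, and Mthfd1l had a change of −0.11. The call of Mthfd1 among polysomes was lost without experiment 1 (adjusted p = 0.26).

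**Figure D2:**
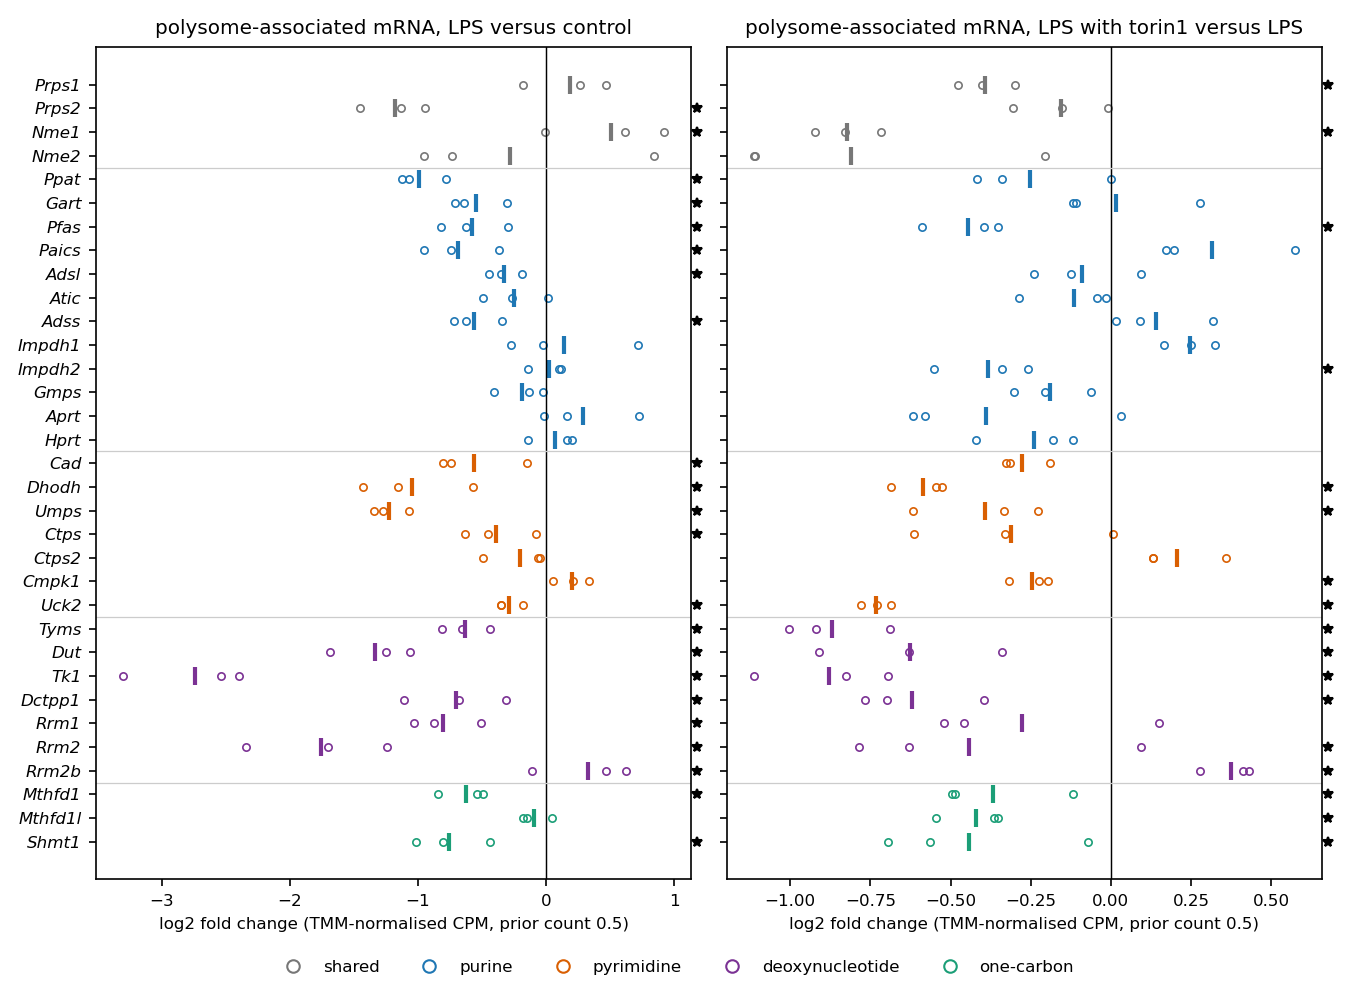
Log2 fold changes of the 33 members in polysome-associated mRNA for LPS versus control (left) and LPS with torin1 versus LPS (right), on separate linear scales, with circles for the 3 experiments, ticks for their mean and stars for genes called. The circles spread more than in total mRNA, and fewer genes are called, 20 lower with LPS and 16 lower with torin1.

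Torin1 lowered nucleotide genes further in cells given LPS. In total mRNA 22 members were called lower and 1 higher relative to LPS alone, where 26.4% of all genes were called lower and 27.3% higher, and the median was −0.41 over the members and 0.00 over all genes. Among polysomes 16 members were called lower and 1 higher, against 18.2% and 20.3% of all genes, with a median of −0.32. The polysome-associated count of lower members was 7 without experiment 1, 4 without experiment 3, 18 without experiment 2 and 5 at an FDR of 0.05. The share of all genes called in either direction moved with it, from 38.4% to 15.8%, 10.6%, 46.1% and 13.8%. With the experiments as a block 24 members were lower and 2 higher in total mRNA (31.4% and 32.6% of all genes), and 18 lower and 2 higher among polysomes (24.3% and 25.4%).

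Thymidylate synthase fell furthest in total mRNA. Tyms went from 40.7, 42.9 and 40.1 CPM with LPS to 19.9, 22.0 and 22.8 CPM with LPS and torin1 in total mRNA (−0.93 ± 0.09, adjusted p = 0.000157) and from 45.7, 38.2 and 47.3 CPM to 22.8, 23.7 and 25.02 CPM among polysomes (−0.88 ± 0.14, adjusted p = 0.00372). Its libraries formed 3 separate levels, with control highest and LPS with torin1 lowest, in both RNA types. Uck2 fell furthest in the pyrimidine arm, from 317.5, 317 and 320.2 CPM to 207, 194 and 181.5 CPM in total (−0.72 ± 0.09, adjusted p = 0.000542), and by −0.73 ± 0.13 among polysomes.

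Tk1, already low with LPS, had the furthest fall among polysomes. The level was 9.94, 13.4 and 15.0 CPM with torin1 against 16.1, 23.7 and 32.4 CPM with LPS alone, a change of −0.92 ± 0.25 (adjusted p = 0.0337). In total mRNA it was 10.6, 12.4 and 16.3 CPM against 9.95, 17.3 and 23.9 CPM, and the change of −0.38 ± 0.27 was called only with the experiments as a block (adjusted p = 0.106 against 0.323 without it). Experiment 1 moved up by 0.09 there and the other experiments moved down.

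Dut fell by 0.63 and Rrm1 by 0.51 on the log2 scale in total mRNA with torin1. Rrm2 fell from 29.7, 46.0 and 56.7 CPM to 20.1, 27.5 and 27.6 CPM (−0.82 ± 0.21, adjusted p = 0.0167). Among polysomes Rrm2 was called at −0.52 ± 0.26 (adjusted p = 0.204), a call lost without experiment 2 (adjusted p = 0.348) and without experiment 3 (adjusted p = 0.649). Rrm2b rose among polysomes, from 22.0, 20.0 and 22.5 CPM to 26.6, 26.5 and 30.3 CPM (0.37 ± 0.18, adjusted p = 0.182). The levels of Rrm2b did not overlap, yet its call was lost without experiment 1 (adjusted p = 0.388) and without experiment 3 (adjusted p = 0.578). The S phase genes were called lower in 10 of 15 cases and higher in 1 with torin1 in total mRNA, and the G2 and mitosis genes lower in 2 and higher in 3 of 12. Of all genes 26.4% were called lower and 27.3% higher there.

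In the pyrimidine arm 5 of 7 genes were called lower with torin1 in total mRNA and 4 of 7 among polysomes, against 26.4% and 18.2% of all genes. Umps fell by 0.54, Ctps by 0.51, Dhodh by 0.45 and Cmpk1 by 0.41 on the log2 scale in total mRNA, beside Uck2. The call of Dhodh was lost without experiment 3 (adjusted p = 0.303). Cad was not called, at −0.21 ± 0.19 in total and −0.28 ± 0.21 among polysomes, and Ctps2 was not called. Among polysomes Umps, Dhodh and Cmpk1 lost their calls without experiment 1 (adjusted p of 0.361, 0.274 and 0.495) and without experiment 3 (adjusted p of 0.645, 0.428 and 0.654), and Cmpk1 also without experiment 2 (adjusted p = 0.325).

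In the purine arm 6 of 12 genes were called lower and 1 higher with torin1 in total mRNA, against 26.4% and 27.3% of all genes. Among polysomes only Pfas and Impdh2 were called, both lower. Since 18.2% of all genes were called lower there, these calls lay near the share of all genes. Ppat fell by 0.46 and Pfas by 0.42 on the log2 scale in total mRNA, whereas Gart and Paics, which act in the same stretch of the pathway, had changes of −0.04 ± 0.11 and 0.06 ± 0.11. Ppat and its head-to-head neighbour Paics both fell with LPS, but with torin1 only Ppat was called. Among polysomes, Ppat was called lower at −0.26 (adjusted p = 0.207) and Paics higher at 0.31 (adjusted p = 0.171) with the experiments as a block and neither without it. Atic fell by 0.30 and Gmps by 0.38, and Hprt, not called with LPS, went from a range of 151 to 169 CPM to a range of 118.2 to 124.3 CPM in total mRNA (−0.40 ± 0.09, adjusted p = 0.0109). The call of Pfas was lost without experiment 2 (adjusted p = 0.293) and without experiment 3 (adjusted p = 0.365), and that of Atic without experiment 3 (adjusted p = 0.273).

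All 3 folate enzymes were called lower with torin1 in both RNA types, where 26.4% of all genes were in total and 18.2% in polysome-associated mRNA. In total mRNA Mthfd1l went from 109, 100.6 and 128 CPM to 57.5, 61.4 and 81.8 CPM (−0.75 ± 0.18, adjusted p = 0.0121), after no call with LPS. Mthfd1 fell by 0.58 and Shmt1 by 0.43. Among polysomes, the 3 folate enzymes fell by between 0.36 and 0.45 on the log2 scale, and without experiment 3 none of the 3 was called there (adjusted p of 0.682 for Mthfd1, 0.459 for Mthfd1l and 0.651 for Shmt1).

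The arms were compared within each experiment, as the median log2 change over the 12 purine genes minus that over the 7 pyrimidine genes. A scaling factor shared by all genes of a library cancels in this difference. With LPS both arms went down, with a median of −0.31 ± 0.09 (SD, n = 3) for purines and −0.42 ± 0.10 for pyrimidines in total mRNA. By experiment the difference was 0.257, 0.024 and 0.065, and its SD of 0.13 was as wide as its mean of 0.12. Without experiment 1 it was 0.04. Among polysomes it was 0.095, 0.146 and 0.133 (0.13 ± 0.03).

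With torin1 the pyrimidine arm lay below the purine arm in every experiment. In total mRNA the arm medians were −0.20 ± 0.08 for purines and −0.45 ± 0.12 for pyrimidines (SD, n = 3), and the differences of 0.233, 0.216 and 0.304 averaged 0.25 ± 0.05. Among polysomes the medians were −0.11 ± 0.10 and −0.42 ± 0.17, and the differences of 0.276, 0.255 and 0.391 averaged 0.31 ± 0.07. Relative to control cells, LPS with torin1 gave differences of 0.323, 0.399 and 0.383 in total and 0.776, 0.236 and 0.680 among polysomes. The SD covers the spread over experiments and not the spread over genes, since single purine genes ranged from −0.64 (Impdh2) to 0.37 (Impdh1) and pyrimidine genes from −0.72 (Uck2) to −0.02 (Ctps2) with torin1 in total mRNA.

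How the arms were drawn mattered more for LPS than for torin1. With the 4 thymidylate and pyrimidine deoxynucleotide genes counted as pyrimidine, the LPS difference in total mRNA was 0.39 in place of 0.12, with de novo enzymes alone it was 0.22, and with means over the genes in place of medians it was 0.21 ± 0.01 (SD, n = 3), a spread far narrower than that of the medians. The torin1 difference in total mRNA stayed between 0.215 and 0.277 under the same alternatives.

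**Figure D3:**
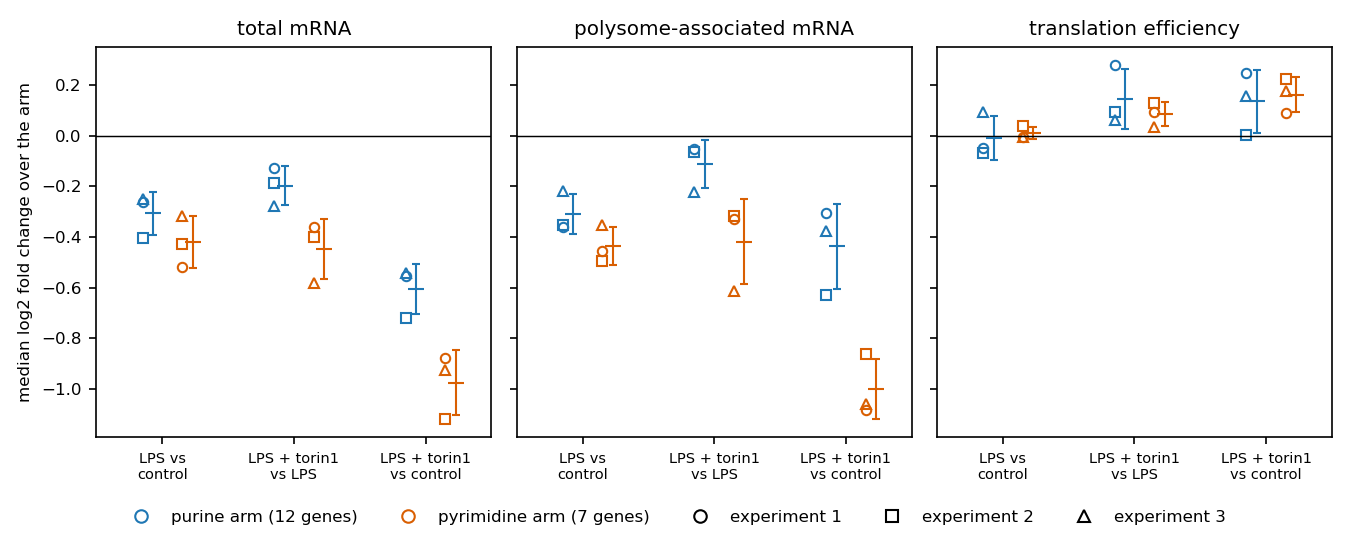
Median log2 fold change over the 12 purine genes (blue) and the 7 pyrimidine genes (orange) in total mRNA, polysome-associated mRNA and translation efficiency, for each comparison. Symbols are the 3 experiments, and bars beside them are mean ± SD. With torin1 against LPS the pyrimidine symbols of each experiment lie below the purine symbols in both RNA types, whereas in translation efficiency the arms overlap.

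Translation efficiency, the change of polysome-associated mRNA beyond that of total mRNA, was not called for any member in any comparison. One edgeR model of the 18 libraries gave it as the term by which the treatment effect differed between RNA types, called with an adjusted p of at most 0.25 and a fold of at least 1.2. This term called 0 of 11243 genes in each comparison (0%), with 44, 110 and 145 genes at an unadjusted p under 0.05 for LPS versus control, LPS with torin1 versus LPS and LPS with torin1 versus control, and none of these was a member. A calibrated test would put a share of 0.05 of unchanged genes there, and these counts lie far below it. The test was thus conservative, and a missing call does not show that translation was unchanged. With the experiments as a block it called 0 (0%), 25 (0.222%) and 3 (0.0267%) genes and still no member. At an unadjusted p under 0.05 there were then 164, 303 and 820 of the 11243 genes, and 0, 4 and 7 of the 33 members. In both comparisons with torin1 the share of members there was larger than that of all genes. DESeq2's Wald test called 1, 13 and 1 genes and the analysis of partial variance 8, 20 and 6, again without a member. The study used another tool at these thresholds, which was not run here. It reported changed translation efficiency after LPS for a subset of mRNAs, mostly reversed by torin1.

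The precision of this test was limited. The SE of a member's change in translation efficiency ran from 0.14 to 0.62 with a median of 0.23 for LPS versus control. The fitted changes lay between −0.32 (Nme2) and 0.21 (Prps1) with LPS, and between −0.66 (Nme2) and 0.31 (Mthfd1l) with torin1 against LPS. Tk1 had −0.56 ± 0.40 with torin1, and its change by experiment was −0.79, −0.34 and −0.56. The lowest adjusted p of a member was 1 for torin1 against LPS, and 0.542 (Tk1) with the block.

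Leaving out experiment 2 changed the calls of translation efficiency over the whole table, from 0 to 430 of 11243 genes (3.82%) for LPS with torin1 versus control. Among the members, Nme2 with LPS and torin1 was at 15.6, 47.7 and 11.5 CPM and Aprt at 246, 489 and 231 CPM. Without experiment 2, the translation efficiency of Nme2 (−1.86, adjusted p = 0.0782) and of Aprt (−0.83, adjusted p = 0.191) was called lower in that comparison, so that 2 of the 33 members were among those genes. With all experiments Nme2 had −0.98 on the log2 scale.

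**Figure D4:**
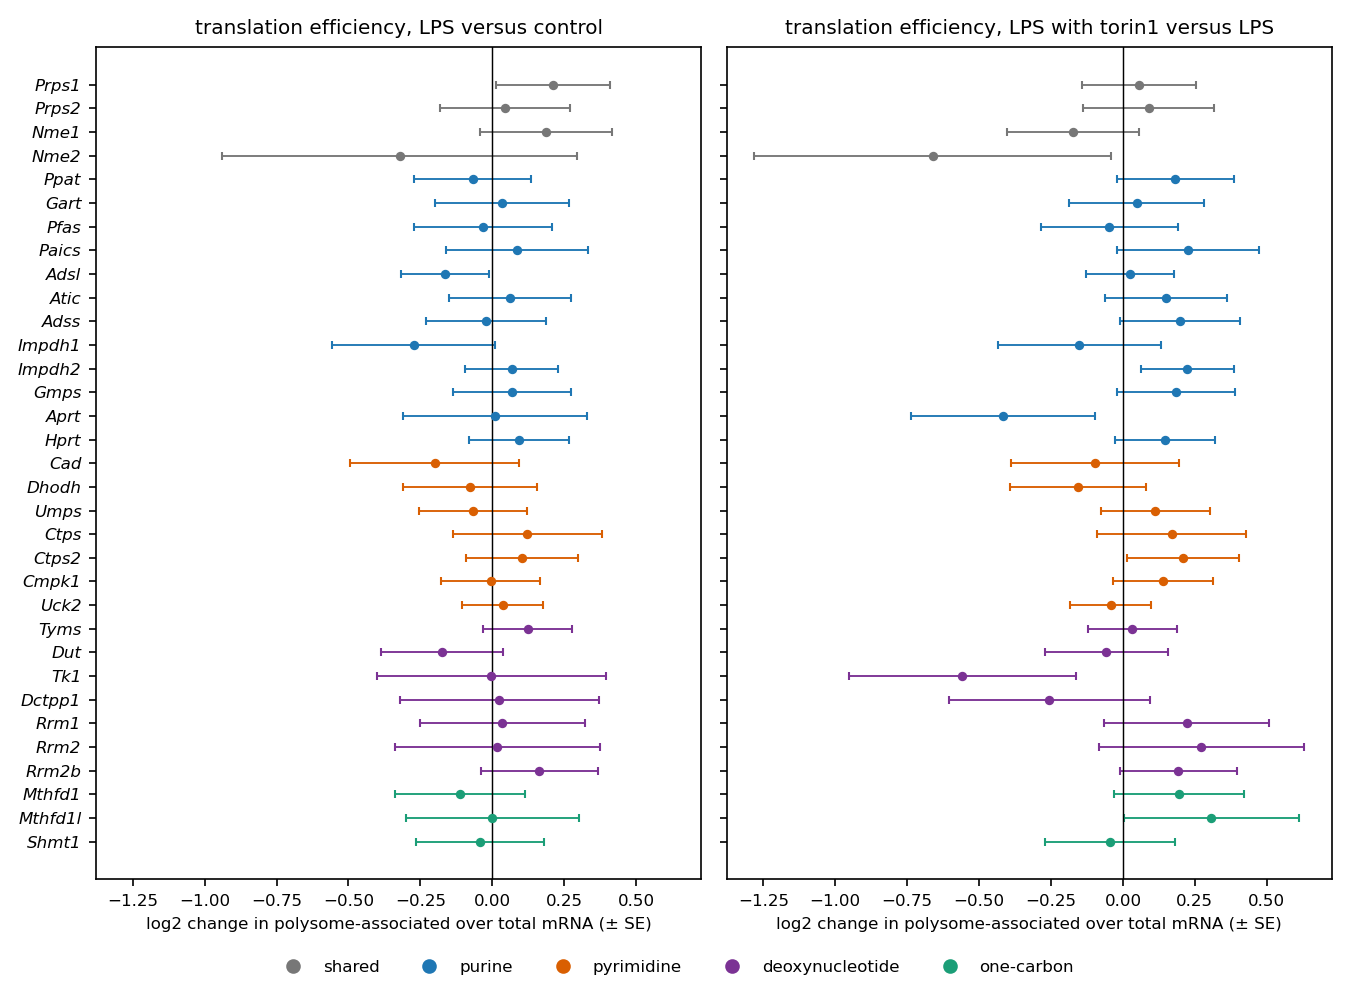
Change in translation efficiency of each member, as the log2 change in polysome-associated relative to total mRNA from the edgeR interaction with its SE, for LPS versus control (left) and LPS with torin1 versus LPS (right). No member is called, and the widest bars are those of Nme2.

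Members differed in how much of their mRNA sat on heavy polysomes. In control cells the log2 ratio of polysome-associated to total CPM was highest for Dctpp1 (0.92 ± 0.05), Impdh1 (0.87 ± 0.17), Nme2 (0.85 ± 0.12) and Dut (0.78 ± 0.01), and lowest for Gmps (−0.68 ± 0.09), Prps2 (−0.67 ± 0.06), Adss (−0.66 ± 0.13) and Rrm1 (−0.61 ± 0.06) (SD, n = 3). With LPS and torin1 the ratio of Nme2 was −0.37 ± 1.10 and that of Tk1 went from 0.51 ± 0.19 in controls to −0.04 ± 0.13, whereas Dctpp1 and Dut stayed among the highest and Prps2, Adss and Gmps among the lowest. The ratio of Dctpp1 varied widely there (0.62 ± 0.70), at 0.442, 1.386 and 0.027 by experiment, with experiment 2 far above the others. The ratio places genes relative to each other, since each RNA type was scaled on its own. Over members the median was −0.06 ± 0.12 in control libraries, −0.06 ± 0.12 after LPS and 0.01 ± 0.10 when torin1 was added, while 15, 16 and 15 of the 33 members lay above the median of all genes.

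The members hold 5 pairs of paralogues, and the genes of a pair often had different values. Prps1 and Prps2 encode PRPP synthetases. Prps1 stood at 63.9, 75.0 and 68.4 CPM in controls, 67.4, 68.4 and 68.7 CPM with LPS and 50.4, 49.2 and 48.7 CPM with LPS and torin1 in total mRNA, so that it was level with LPS and lower with torin1 (−0.46 ± 0.09, adjusted p = 0.0039). Prps2 fell with LPS, from 79.3, 90.8 and 89.5 CPM to 33.1, 39.0 and 40.6 CPM (−1.20 ± 0.12, adjusted p = 3.09e-05), and was at 26.8, 31.4 and 34.5 CPM with torin1 (−0.28 ± 0.12, adjusted p = 0.107), a call that was lost without experiment 2 (adjusted p = 0.301).

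Among polysomes, Prps1 stood at 71.9, 88.2 and 80.6 CPM in controls, 99.6, 77.7 and 97.0 CPM with LPS and 80.9, 55.8 and 73.4 CPM with torin1. Prps2 stood there at 47.7, 57.0 and 58.5 CPM, then 21.7, 20.8 and 30.4 CPM, then 21.6, 18.7 and 24.6 CPM. Only Prps2 had LPS libraries wholly below those of control. Per kilobase of annotated exon, total Prps1 went from 34.7 ± 2.8 to 34.2 ± 0.3 and Prps2 from 22.3 ± 1.6 to 9.70 ± 1.02 CPM per kilobase (SD, n = 3), so that LPS widened the lead of Prps1.

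Impdh1 and Impdh2, the IMP dehydrogenases, moved in opposite directions with torin1. In total mRNA, Impdh1 stood at 54.1, 46.9 and 55.0 CPM in controls, 49.5, 89.1 and 71.1 CPM with LPS and 85.9, 93.6 and 90.6 CPM with LPS and torin1. Impdh2 stood at 153, 160 and 149.5 CPM, then 157, 133 and 161 CPM, then 99.7, 93.9 and 97.1 CPM. With torin1 Impdh2 fell clear of every other library (−0.64 ± 0.10, adjusted p = 0.00154), and the groups of Impdh1 overlapped.

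The calls of Impdh1 depended on single experiments. With LPS it was called higher at 0.43 ± 0.18 (adjusted p = 0.0719), which was lost without experiment 2 (adjusted p = 0.549). With torin1 it was called at 0.37 ± 0.18 (adjusted p = 0.147), which was lost without experiment 1 (adjusted p = 0.364) and without experiment 3 (adjusted p = 0.403). Among polysomes Impdh1 stood at 112.5, 84.2 and 90.8 CPM, then 93.2, 138 and 89.0 CPM, then 110.9, 155 and 111.6 CPM, and was called at neither of these steps. Impdh2 stood there at 163, 157 and 156 CPM, then 174, 142 and 169 CPM, then 138, 118.3 and 115.6 CPM, and its fall at −0.39 ± 0.14 (adjusted p = 0.0923) was not called without experiment 1 (adjusted p = 0.304) or without experiment 3 (adjusted p = 0.596). In annotated transcripts 67.6% of the 50-base words of Impdh2 recur in a pseudogene, Impdh2-ps, so that its level is uncertain.

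The CTP synthetases Ctps and Ctps2 parted with torin1. In total mRNA Ctps stood at 174, 173 and 168 CPM in controls, 121, 109 and 139.7 CPM with LPS and 94.5, 76.1 and 88.5 CPM with LPS and torin1, and fell at both steps, by 0.48 and 0.51 on the log2 scale (adjusted p = 0.00744 and 0.00998). Ctps2 stood at 36.8, 43.1 and 36.6 CPM, then 34.5, 32.1 and 27.5 CPM, then 27.5, 33.6 and 31.6 CPM. Ctps2 was called lower with LPS (−0.31 ± 0.12, adjusted p = 0.0626) and had −0.02 ± 0.12 with torin1.

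Among polysomes the levels of Ctps were 122.5, 111.3 and 126 CPM, then 89.4, 71.8 and 119.5 CPM, then 89.7, 57.1 and 78.1 CPM. With LPS it was called at −0.36 ± 0.21 (adjusted p = 0.225). That call was lost without experiment 1 (adjusted p = 0.555) and without experiment 2 (adjusted p = 0.279), and with DESeq2 (adjusted p = 0.301). Ctps2 stood there at 30.9, 37.8 and 31.8 CPM, then 29.6, 26.8 and 30.7 CPM, then 38.0, 29.3 and 33.6 CPM. Its LPS libraries lay just below those of control, but it was not called with LPS (adjusted p = 0.339) or in the other comparisons.

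The small subunits Rrm2 and Rrm2b came near each other in CPM with LPS and torin1. Rrm2b stood at 24.5, 26.4 and 23.2 CPM in controls, 30.4, 27.0 and 24.5 CPM with LPS and 29.8, 29.6 and 32.0 CPM with LPS and torin1 in total mRNA. Among polysomes it stood at 14.2, 21.6 and 16.2 CPM in controls, and Rrm2 with torin1 at 21.7, 22.1 and 27.7 CPM. Per kilobase of exon the total level of Rrm2 was 51.5 ± 4.5 in control cells and 9.05 ± 1.54 with LPS and torin1, and that of Rrm2b 2.70 ± 0.17 and 3.33 ± 0.14 CPM per kilobase (SD, n = 3), so that Rrm2 stayed the higher of the pair on this scale. Of the 50-base words of Rrm2b 17.2% recur in other genes.

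The nucleoside diphosphate kinases Nme1 and Nme2 balance the triphosphate pools. Nme1 was called higher with LPS and lower with torin1 in both RNA types. In total mRNA it stood at 104, 127 and 99.6 CPM in controls, 149, 129.6 and 140.2 CPM with LPS and 82.9, 86.3 and 91.3 CPM with LPS and torin1. Among polysomes it stood at 139, 170.2 and 141 CPM, then 263.5, 169 and 215.5 CPM, then 139, 103 and 121 CPM. The LPS change was 0.34 ± 0.11 in total (adjusted p = 0.0315) and 0.53 ± 0.19 among polysomes (adjusted p = 0.0556), and experiment 2 had 0.03 and −0.01. The polysome-associated call was lost without experiment 1 (adjusted p = 0.433) and without experiment 3 (adjusted p = 0.302).

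With torin1 Nme1 fell by 0.69 ± 0.11 in total (adjusted p = 0.00204) and by 0.84 ± 0.19 among polysomes (adjusted p = 0.0173) on the log2 scale, and every torin1 library lay below every LPS library. Nme2 was not called in either comparison. Its total mRNA stood at 28.16, 18 and 27.83 CPM, then 17.5, 40.5 and 19.7 CPM, then 24.2, 26.7 and 28.4 CPM, and its polysome-associated mRNA at 55.9, 30.6 and 48.1 CPM, then 33.7, 55.0 and 24.9 CPM, before the torin1 values given above. Experiment 2 went the other way from the rest with LPS in both RNA types. The genes lie in tandem on chromosome 11, a readthrough gene spans them, and 47% of the 50-base words of Nme2 and 11.1% of those of Nme1 recur in other genes, so that the levels of Nme2 above all are uncertain.

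**Figure D5:**
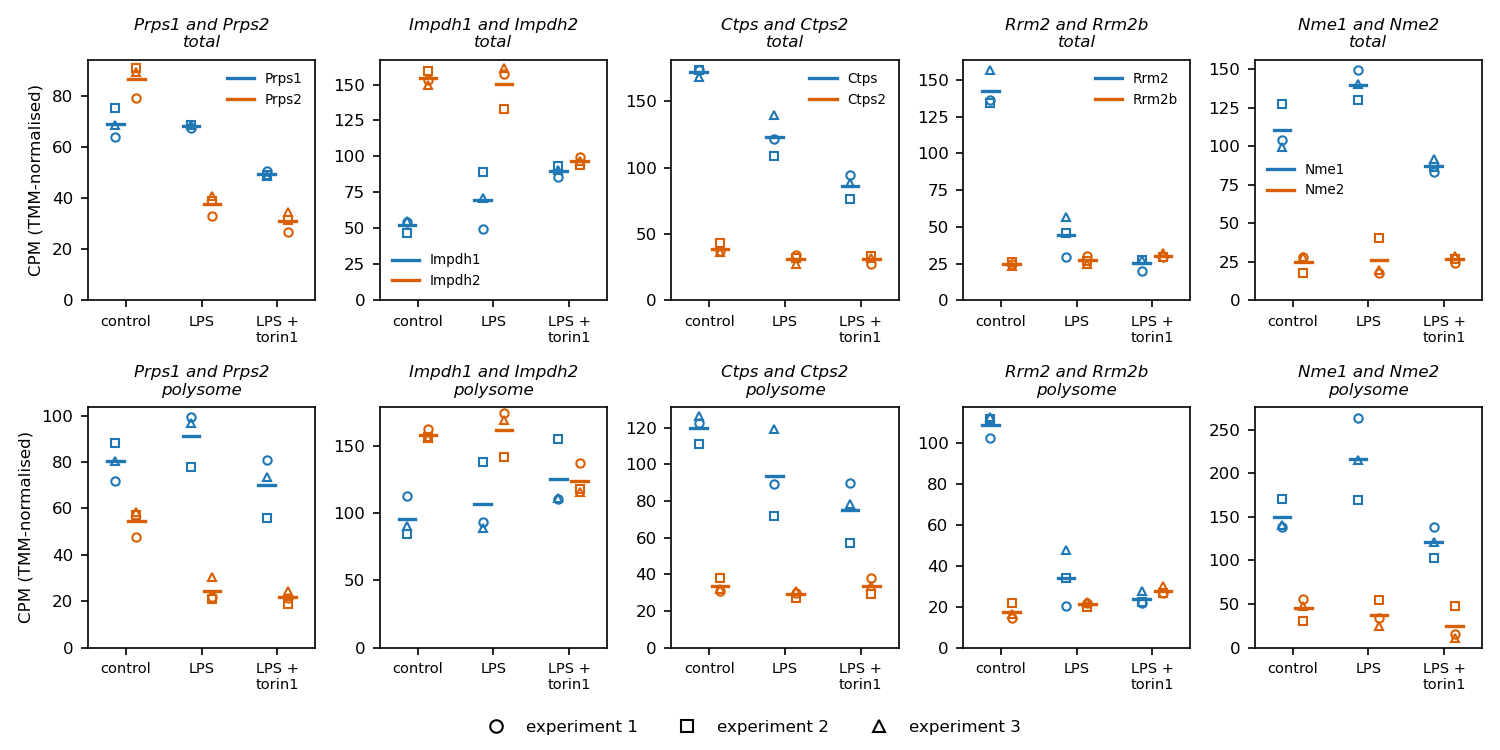
TMM-normalised CPM of the 5 pairs of paralogues in total (top) and polysome-associated mRNA (bottom), by treatment, on linear axes from 0. Symbols are the 3 experiments and bars their mean. Prps2, Ctps and Rrm2 drop with LPS, Impdh2 and Nme1 drop with torin1, and experiment 2 stands apart for Nme2.

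Set against the vehicle group, cells given LPS and torin1 had 29 members lower and 3 higher in total mRNA, where 33.6% of all genes were lower and 33.1% higher. Among polysomes 26 were lower and 2 higher, against 29.7% and 28.5% of all genes. The median was −0.69 in total and −0.68 among polysomes. Tk1 had the furthest change, −3.07 in total and −3.61 among polysomes, ahead of Rrm2 with −2.51 and −2.19, Dut with −1.75 and −1.96, Umps with −1.69 and −1.62, Tyms with −1.69 and −1.51 and Dhodh with −1.44 and −1.65. The higher members were Impdh1 (0.79), Aprt (0.36) and Rrm2b (0.30) in total mRNA, and Impdh1 (0.39) and Rrm2b (0.68) among polysomes. The total call of Rrm2b was lost without experiment 3 (adjusted p = 0.266), and the polysome-associated call of Impdh1 without experiment 2 (adjusted p = 0.525) or 3 (adjusted p = 0.328). Nme2 was called lower among polysomes (−0.85, adjusted p = 0.203), a call lost without experiment 1 (adjusted p = 0.72) and without experiment 3 (adjusted p = 0.616).

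Further genes of the pathways were taken from lists that hold no member. In total mRNA with LPS, 5 of 19 further purine genes were called higher and 9 lower, of 15 further pyrimidine genes 5 and 5, and of 17 further one-carbon genes 7 and 4. Of all genes 32.2% were called higher and 34.3% lower. The furthest rises in the pyrimidine and purine lists were those of nucleoside phosphorylases and of a mitochondrial kinase. Upp1, uridine phosphorylase, went from 0.243, 0.409 and 0.263 CPM to 26.0, 38.4 and 22.6 CPM (6.52 ± 0.54, adjusted p = 8.64e-06). Pnp, purine nucleoside phosphorylase, went from 39.9, 70.1 and 36.7 CPM to 285, 309 and 212 CPM (2.46 ± 0.31, adjusted p = 0.000127). Cmpk2, the mitochondrial UMP and CMP kinase, went from 12.5, 84.5 and 31.2 CPM to 573, 1216 and 574 CPM (4.20 ± 0.74, adjusted p = 0.00101).

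Other further genes were lower with LPS, among them Gmpr (−0.94), which turns GMP back to IMP, the muscle-type adenylosuccinate synthase Adssl1 (−0.83), Uprt (−0.90) and the thymidylate kinase Dtymk (−0.81). Mthfs, a folate enzyme, rose by 1.57 on the log2 scale. Gldc, of the glycine cleavage system, had −1.35 but stood under 1 CPM in every total library, and was not called without experiment 2 (adjusted p = 0.255). Gda, guanine deaminase, was called higher at 0.86, with 100.5, 32.4 and 28.8 CPM against 27.3, 32.6 and 29.3 CPM. Experiment 1 alone was raised, and without it the change was −0.003 (adjusted p = 0.991).

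With torin1, 5 of the 19 further purine genes were called higher and 7 lower in total mRNA, of the pyrimidine genes 4 and 8 of 15, and of the one-carbon genes 2 and 8 of 17, against 27.3% of all genes higher and 26.4% lower. Ampd3, AMP deaminase, went from 11.7, 17.7 and 15.4 CPM to 56.5, 59.0 and 75.2 CPM (2.09 ± 0.18, adjusted p = 8.5e-05). Mthfd2, the mitochondrial folate enzyme next to Mthfd1l, went from 292, 213 and 146 CPM to 77.8, 89.6 and 75.5 CPM (−1.42 ± 0.22, adjusted p = 0.00137). Ak4 went from 22.0, 19.7 and 19.5 CPM to 7.17, 7.39 and 7.42 CPM (−1.48 ± 0.21, adjusted p = 0.00103). In these 3 genes no library of the one group reached the other.

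Several genes raised by LPS were lower with torin1, with log2 changes of −1.46 for Upp1, −1.67 for Cmpk2 and −0.78 for Pnp. Tk2, the mitochondrial thymidine kinase, rose by 0.93 and Uckl1 by 0.47. Gda (0.90) and Ggh (0.25) were called higher as well, but neither without experiment 3 (adjusted p of 0.433 and 0.599) nor without experiment 2 (adjusted p of 0.293 and 0.271). The fall of Pnp was not called without experiment 1 (adjusted p = 0.312) and that of Cmpk2 without experiment 3 (adjusted p = 0.304).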

How the data were processed

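Total and heavy-polysome mRNA was measured by stranded paired-end RNA sequencing after removal of ribosomal RNA. The authors used a nextflow pipeline (Hisat2 on GRCm38, then featureCounts with an Ensembl annotation) and deposited raw counts of 11243 protein-coding genes without a 0 in any of the 18 libraries. The deposited counts are not normalised. Versions of Hisat2, featureCounts and the annotation were not given in the sources used here. Depth was 27800983 to 47725557 counts.

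Counts were tested with edgeR 4.0.16 (R 4.3.3, TMM, quasi-likelihood) in one model of 9 libraries per RNA type, with Benjamini-Hochberg adjustment over all genes. Thresholds (FDR 0.25, and a fold of 1.2 for translation efficiency) follow the study's methods. Its tool for translation was not installed, so an interaction model and a regression of polysome-associated on total mRNA (limma 3.58.1) were used. Log2 CPM per experiment used a prior count of 0.5. Alternatives were DESeq2 1.42.0 (Wald test, size factors), a minimum of 10 counts, an FDR of 0.05, leaving out each experiment, only the compared treatments, other definitions of the arms and a replicate block. Scripts were tested on simulated data.

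The numbers pair the lysates: both RNA types came from one lysate of a numbered experiment, and same-numbered total libraries deviated together (r from 0.149 to 0.426 in 9 pairs; polysome-associated −0.092 to 0.739, mean 0.291).

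Members, lists and tests were chosen with earlier results of these data known. Every member is named. Values in every library are given for the 3 rising and 3 falling members of each comparison with the largest called change and the same direction in all experiments, for the paralogue pairs, and for some others chosen after their values were seen. Of further genes, the 2 rising and 2 falling with the largest called change in total mRNA are named, except some that are not reported here. Exon overlaps and shared 50-base words came from GENCODE M21 (GRCm38), promoters from RefSeq.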

Additional observations from a re-analysis of the deposited data

How the results depend on the processing

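The 149 calls of single members kept their direction under all 9 alternatives applied to them, in 1341 values, of which 138 no longer passed the threshold, 43 of them at an FDR of 0.05 and 81 when an experiment was left out. The FDR of 0.05 keeps the fitted change, so its values could not reverse. The other alternatives refit the same libraries in whole or in part. The 24 calls of further genes that met the rule for naming gave 213 values, 16 of which no longer passed and 1 of which reversed, Gda with LPS, which ran from −0.003 without experiment 1 to 1.189 without experiment 2. With 3 experiments, leaving one out cannot move a mean by as much as the SD, so that comparison is no check. Without experiment 1, 2 or 3 the arm difference in total mRNA was 0.044, 0.161 or 0.141 for LPS versus control. For torin1 versus LPS it was 0.26, 0.269 or 0.224. With the replicate block the members called higher with torin1 against LPS were 2 in total and 2 in polysome-associated mRNA, in place of 1 and 1, and the block moved no other count of members by over 1.5 times. At an FDR of 0.05 the members called higher were 1 (total, LPS versus control), 0 (total, torin1 versus LPS), 0 (polysome-associated, LPS versus control), 0 (polysome-associated, torin1 versus LPS) and 1 (polysome-associated, LPS with torin1 versus control), and those called lower 5 and 17 in the last 2 of these. Leaving out one experiment gave members called higher of 1 to 3 and 0 to 2 in total mRNA, for LPS versus control and torin1 versus LPS, and of 0 to 4, 0 to 3 and 1 to 2 in polysome-associated mRNA, for LPS versus control, torin1 versus LPS and LPS with torin1 versus control. Members called lower were then 13 to 20 and 4 to 18 in polysome-associated mRNA for the first 2 of these, and 0 to 2 in translation efficiency for LPS with torin1 versus control. These fits hold fewer samples. With the thymidylate genes in the pyrimidine arm the purine minus pyrimidine difference was 0.387 and 0.484 in total mRNA (LPS, and LPS with torin1, versus control) and 0.353 and 0.889 in polysome-associated mRNA. De novo enzymes alone gave 0.266 in polysome-associated mRNA for LPS versus control. Means over genes gave 0.426 in total mRNA for LPS with torin1 versus control, and 0.203 and 0.219 in polysome-associated mRNA for LPS versus control and torin1 versus LPS. The SE of translation efficiency limits what could be detected there.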
